A study of Homo sapiens with 2 samples.

Results

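Antisense RNAs are transcribed from the strand opposite another gene, and 305 of them were expressed in SF-539 glioblastoma (GBM) cells with and without knockdown of FKBP9. The 305 were selected by their annotation and by their level. A gene was a member when the file listed it as antisense, when it was at least 500 bases long and when it had at least 1 FPKM in both libraries. FPKM is the number of sequenced fragments scaled by the length of the gene and by the size of the library. The file held 58735 genes, and 5583 of these were antisense. No fragment was found on 2549 of the antisense genes, and 376 reached 1 FPKM in both libraries. Of these, 66 were shorter than 500 bases, and 5 were left out by name as hosts of small nucleolar RNAs (ZFAS1, SNHG7, SNHG10, SNHG12 and SNHG21). Since the minimum on FPKM chose the members, their being expressed in both libraries is not a result.

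SF-539 is an established human GBM cell line. FKBP9 is a prolyl isomerase of the endoplasmic reticulum. The shControl cells had been infected with a lentivirus carrying pGIPZ-CTRL, and the shFKBP9 cells with one carrying an shRNA against FKBP9. Both were selected with puromycin and kept as stable lines at passages of one labelled range, and there was 1 library for each. Whether each line came from 1 clone or from several is not given in the sources used here, so the shRNA, the line and the library cannot be told apart. FKBP9 itself, which lost most of its signal, had 49.8 FPKM in shControl and 4.68 FPKM in shFKBP9.

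An antisense gene can start beside the promoter of its neighbour and run away from it (head to head), can end inside the neighbour's end (tail to tail), or can lie wholly inside it. Many such transcripts come from promoters that fire in both directions. Some act on the gene they overlap, some act elsewhere in the cell, and for most no function is known. Reads of overlapping genes on opposite strands can be separated only when the library and the counting keep the strand. The kit named for these libraries is the NEBNext Ultra RNA kit, and the sources used here do not say whether reads were counted by strand. Where exons of the antisense RNA and of the opposite gene cover the same bases, the reads of the pair cannot be told apart if they were not.

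The windows in which 5 of these RNAs start are shown first, chosen because results below turn on these members and not as a sample of the set: the most abundant member (FGD5-AS1), a head-to-head member lower in shFKBP9 (TMEM9B-AS1), a member of the HOXD cluster (HAGLR), a member opposite a proteasome gene (PSMA3-AS1) and the member with the highest log2 ratio (AC020571.1, HECW2-AS1 in GENCODE 44). Each window runs from 250 bases before to 50 bases after the RefSeq start (GRCh38.p14), 5′ to 3′ on the strand of the RNA. Capitals mark GC boxes (GGGCGG or its reverse complement CCGCCC), the site of SP1-type factors, and CCAAT boxes (CCAAT or its reverse complement ATTGG), the site of NF-Y. TATAAA boxes and the core of a cAMP response element (TGACGT) were searched on both strands too, and none of these 5 windows held one.
FGD5-AS1, chr3:14948392-14948691, minus strand: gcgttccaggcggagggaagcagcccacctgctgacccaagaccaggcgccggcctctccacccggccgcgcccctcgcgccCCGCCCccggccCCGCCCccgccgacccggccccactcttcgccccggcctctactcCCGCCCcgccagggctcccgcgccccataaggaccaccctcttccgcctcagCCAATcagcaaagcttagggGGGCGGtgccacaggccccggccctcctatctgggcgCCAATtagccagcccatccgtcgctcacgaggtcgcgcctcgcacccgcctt
PSMA3-AS1, chr14:58298088-58298387, minus strand: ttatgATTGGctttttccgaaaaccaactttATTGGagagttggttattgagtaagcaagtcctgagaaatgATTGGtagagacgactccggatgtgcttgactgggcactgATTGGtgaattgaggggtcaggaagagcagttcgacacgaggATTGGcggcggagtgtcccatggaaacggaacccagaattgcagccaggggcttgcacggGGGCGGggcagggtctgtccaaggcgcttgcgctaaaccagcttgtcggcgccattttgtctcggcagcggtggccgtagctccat
TMEM9B-AS1, chr11:8964425-8964724, plus strand: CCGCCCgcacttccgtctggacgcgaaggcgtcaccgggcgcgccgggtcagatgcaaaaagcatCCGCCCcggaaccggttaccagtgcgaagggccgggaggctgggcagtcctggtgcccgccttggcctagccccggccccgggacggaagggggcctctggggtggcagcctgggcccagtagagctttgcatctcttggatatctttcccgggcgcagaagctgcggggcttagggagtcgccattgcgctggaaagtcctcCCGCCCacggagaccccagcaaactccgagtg
HAGLR, chr2:176188909-176189208, minus strand: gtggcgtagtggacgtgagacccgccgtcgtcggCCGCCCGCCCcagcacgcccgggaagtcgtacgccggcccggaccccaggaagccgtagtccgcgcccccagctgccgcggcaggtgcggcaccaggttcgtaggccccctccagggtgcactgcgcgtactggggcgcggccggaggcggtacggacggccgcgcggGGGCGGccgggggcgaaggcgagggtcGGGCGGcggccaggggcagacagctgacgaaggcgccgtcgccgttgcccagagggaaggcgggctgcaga
AC020571.1 (HECW2-AS1), chr2:196259774-196260073, plus strand: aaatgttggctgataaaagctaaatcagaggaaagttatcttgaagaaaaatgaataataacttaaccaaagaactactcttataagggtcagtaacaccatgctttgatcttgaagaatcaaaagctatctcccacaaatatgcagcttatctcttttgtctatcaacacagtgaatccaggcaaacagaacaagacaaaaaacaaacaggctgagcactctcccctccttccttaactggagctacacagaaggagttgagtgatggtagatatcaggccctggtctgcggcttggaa

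The first of the 5 windows, that of FGD5-AS1, held 4 GC boxes, 2 CCAAT boxes and 32 CG dinucleotides. PSMA3-AS1 had 5 CCAAT boxes and 1 GC box with 17 CG dinucleotides. In TMEM9B-AS1 there were 3 GC boxes and 27 CG dinucleotides, and in HAGLR 4 GC boxes, of which a pair overlap, and 45 CG dinucleotides. The window of AC020571.1, which starts inside the gene body of HECW2, had none of the searched motifs and 1 CG dinucleotide, with 39.7% G and C. A match is a run of letters and was not tested as a bound site.

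Starts could be matched to RefSeq for 161 of the 305 members by symbol, and 150 of these lay within 1000 bases of the start in the file. A GC box was present in 65.8% of the 161 windows, in 72.2% of the windows of 8082 protein-coding genes passing the same minimum and in 45.0% of all 35116 windows. The CCAAT box was found in 31.7%, 37.1% and 34.6%, the TATAAA box in 4.35%, 5.20% and 11.5%, and the cAMP core in 8.70%, 12.6% and 7.98%. The ER stress response element, the CCAAT-spacer-CCACG site of the unfolded protein response, was in 0 of the 161 windows (0.136% of the expressed protein-coding windows and 0.0769% of all). The median number of CG dinucleotides was 27 for the members, 27 for the expressed protein-coding genes and 14 for all windows. In GC boxes, TATAAA boxes and CG dinucleotides the members' starts lay closer to those of expressed protein-coding genes than to all windows, and in CCAAT boxes and the cAMP core they did not. Windows of the sets overlap wherever a promoter serves both genes of a pair.

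Both libraries were of similar depth, with 18116873 fragments on genes in shControl and 17158514 in shFKBP9. One fragment on a gene of 1 kilobase was worth 0.0552 and 0.0582 FPKM. The labels call the cells epithelial glioma cells. Of 6 glial and glioma markers, NES passed 1 FPKM with 2.36 and 2.17, and the others were below it (OLIG2 0.791 and 0.712, GFAP 0.196 and 0.139, SOX2 0.0879 and 0.162, S100B 0 and 0.0402, AQP4 0 in both). Of 4 epithelial markers, KRT8 passed it with 1.28 and 1.09, and the others were below it (EPCAM 0.241 and 0.324, KRT18 0.154 and 0.0905, CDH1 0 and 0.00943). Mesenchymal genes were abundant, among them VIM with 277 and 295 FPKM and CD44 with 48.6 and 55.6. No fragment of the blood marker PTPRC was found.

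As a class the expressed antisense RNAs were scarce. The median member had 2.13 FPKM in shControl and 2.06 in shFKBP9, against 7.70 and 7.57 for 10033 protein-coding genes and 2.28 and 2.41 for 235 intergenic long noncoding RNAs (lincRNAs) past the same minimum. Together the 305 held 34461 fragments in shControl (0.190% of those on genes) and 31194 in shFKBP9 (0.182%). At least 2 FPKM in both libraries was reached by 135 members, at least 5 by 30 and at least 10 by 10. The 12 most abundant members held 19.9% of the fragments of the set in shControl and 18.5% in shFKBP9. Names were uninformative for many: 182 were clone names, of which 91 carry a gene symbol in GENCODE 44, and 96 were named as antisense to a gene. In GENCODE 44, 51 of the 305 have symbols ending in DT, for divergent transcript.

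FGD5-AS1 (chr3:14920347-14948424, minus strand) was the most abundant, with 32.7 FPKM in shControl and 26.7 in shFKBP9. It is a long noncoding RNA studied in several cancers. AC093673.1 (FAM131B-AS2 in GENCODE 44), which starts 585 bases from ZYX, the gene of the adhesion protein zyxin, followed with 20.4 and 19.2 FPKM. Next were AC005288.1 opposite MED1, a Mediator subunit, with 15.0 and 17.0, and WNT5A-AS1 inside the WNT5A ligand gene with 16.0 and 13.9. NECTIN3-AS1 had 14.9 and 13.7 FPKM, AC027307.2 inside APC2 had 14.3 and 13.9, and AC100810.1 (CLN8-AS1) inside CLN8 had 14.1 and 14.0. LOXL1-AS1, which starts at the gene of a collagen cross-linking oxidase, had 13.0 and 13.4, and ARRDC1-AS1 had 13.1 and 11.9. The last of the 12 were AL049840.1 (KLC1-AS1) inside the kinesin light chain gene KLC1 with 13.8 and 10.0, AL121832.2 beside the ribosomal protein gene RPS21 with 11.7 and 11.6, and AL441992.1 (ZDHHC12-DT) with 11.8 and 9.42. Only FGD5-AS1 and AL049840.1 among these 12 had a counting interval of the ratio that left out 0.

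**Figure D1:**
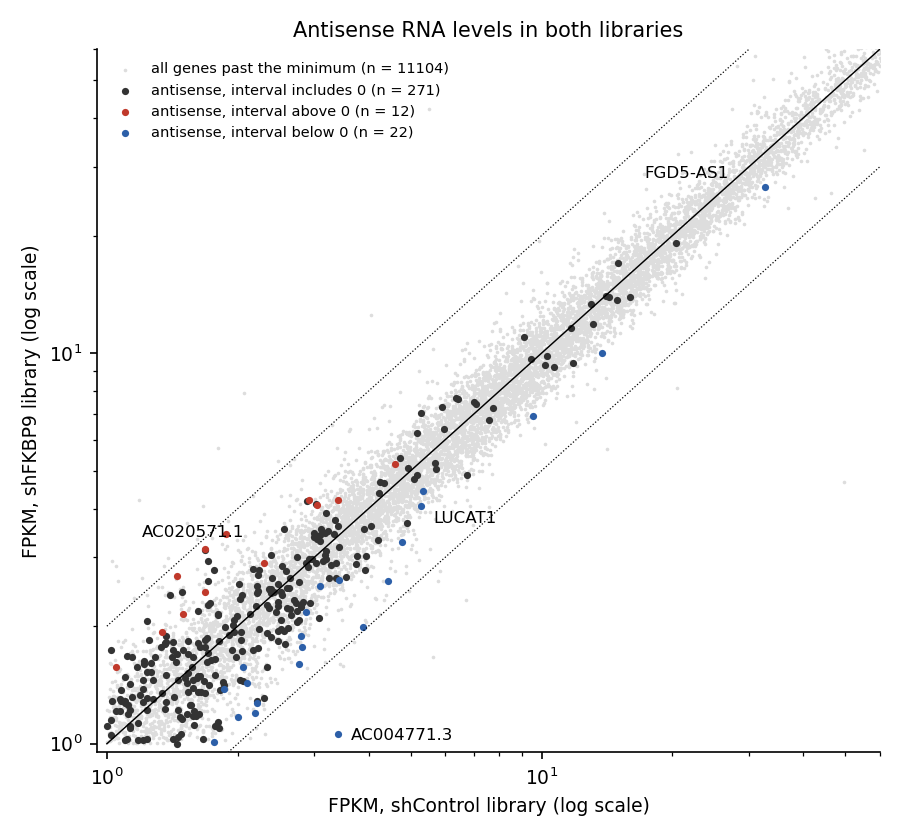
FPKM in the shControl library (x, log scale) and in the shFKBP9 library (y, log scale) for the 305 antisense RNAs over all 11104 genes past the same minimum (grey). The solid line is equal FPKM and the dotted lines are 2-fold, genes beyond the axes are not drawn, and AC004771.3 (3.41 and 1.06 FPKM) is the antisense RNA outside them.

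The question put to the 2 libraries was which transcripts differ after loss of FKBP9. For each gene a log2 ratio, shFKBP9 over shControl, was taken of the FPKM with 0.1 added to each, and a 95% counting interval (exact Clopper-Pearson, from the fragments, with nothing added) was set beside it. The interval covers counting error only. With 1 library per condition there is no replicate error and no test between conditions, so values are given by size. FKBP9 had a log2 ratio of −3.38 (interval −3.56 to −3.27) from 4659 and 415 fragments.

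The antisense RNAs as a set, chosen by a minimum in both libraries, lay at nearly the same level in both. Their median log2 ratio was −0.02 (quartiles −0.28 and 0.19), which was also the median of all 11104 genes (quartiles −0.15 and 0.12). Values were above 0 for 144 members and below 0 for 161. Summed over the set, fragments gave a log2 ratio of −0.07 (interval −0.09 to −0.04), and −0.05 without FGD5-AS1. The same sum was 0.09 (0.08 to 0.11) for the lincRNAs, whose median was 0.05.

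The minimum in both libraries limits counts by fold. A member under 2 FPKM in 1 library could not be over 2-fold lower in the other and stay in the set. At least 2 FPKM in both was reached by 135 of the 305. The median in shControl was 2.13 FPKM for members and 6.94 for all 11104 genes, so the limit weighs more on the members. No member was more than 2-fold higher in shFKBP9 (0 of 305, against 0.144% of all 11104 genes). One member was more than 2-fold lower (0.328%, against 0.108%). It was AC004771.3, named here after its value was seen, on chr17:4987706-4988446. It had 3.41 FPKM in shControl and 1.06 in shFKBP9, from 34 and 10 fragments, and a log2 ratio of −1.60 (interval −2.87 to −0.64). Its partner INCA1, an inhibitor of cyclin-dependent kinase activity, had 102 and 60 fragments and −0.67 (−1.17 to −0.21). As 33.5% of the antisense exonic bases fall in exons of overlapping opposite genes, part of its fragments could come from either strand if reads were not counted by strand.

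At 1.5-fold, 10 members were higher (3.28%, against 1.10% of all genes) and 15 lower (4.92%, against 1.20%). With 1 in place of 0.1 added to the FPKM, 4 were higher and 3 lower. These shares moved with depth. Of 60 members with under 50 fragments in the libraries together, 10 were past 1.5-fold in either direction (16.7%), and among all genes of that depth the share was 19.1%. Of 218 with 50 or more and under 500 it was 15 (6.88%, against 5.90%), and of 27 with 500 or more it was 0 (against 0.941%). Within the upper depth ranges the members were still the shallower, with medians of 128 against 269 and 716 against 1815 fragments.

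Counting intervals lay above 0 for 12 members (3.93%, against 18.5% of all genes) and below 0 for 22 (7.21%, against 22.6%). The intervals reached a median of 0.56 to either side for the members and of 0.16 for all genes, with medians of 112 and 1261 fragments. Among members with 500 or more fragments 9 of 27 had an interval that left out 0 (33.3%), while of all genes with 500 or more it was 48.2%.

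After AC004771.3, intervals that ended far below 0 belonged to C1RL-AS1, LUCAT1, AL118506.1, AL049840.1 and FGD5-AS1. C1RL-AS1, which starts at the gene of a complement C1r-like protease, had 1.76 and 1.01 FPKM, 194 and 106 fragments, and −0.74 (−1.15 to −0.45). LUCAT1, a noncoding RNA known to be induced by stress and interferon, had 5.27 and 4.05 FPKM, 1579 and 1150 fragments, and −0.37 (−0.49 to −0.27). AL118506.1 had 267 and 174 fragments and −0.53 (−0.82 to −0.26), and AL049840.1 had 351 and 241 and −0.46 (−0.71 to −0.23). FGD5-AS1 had 3040 and 2350 fragments and −0.29 (−0.37 to −0.22), the narrowest of these intervals. All 5 were lower in shFKBP9 beyond counting error, with no replicate to set beside it.

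Among members with at least 50 fragments the 8 lowest ratios ran from −0.93 to −0.64. AP001542.3 (LINC02979), with 37 and 18 fragments, had −0.93 (−1.86 to −0.11). TMEM9B-AS1, whose start is printed above, had 2.19 and 1.20 FPKM and −0.81 (−1.64 to −0.12). Others among them were AF001548.2 inside the smooth muscle myosin gene MYH11 with −0.76, C1RL-AS1, AC083880.1 inside LUC7L2 with −0.74, AP003068.2 (CAPN1-AS1) with −0.73 and AL445524.1 with −0.64. In AC083880.1 (43 and 24 fragments), AF001548.2 (42 and 23) and AL445524.1 (52 and 31) the interval ended between −0.03 and 0.

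A further 5 members below 0 were named after their values were seen. ATP2A1-AS1, inside the gene of a muscle calcium pump, had 9.57 and 6.89 FPKM, 101 and 69 fragments, and −0.47 (−0.94 to −0.02). FEZF1-AS1, an RNA described in several carcinomas, had 3.42 and 2.62 FPKM, 205 and 149 fragments, and −0.37 (−0.70 to −0.07). NOP14-AS1, opposite a ribosome assembly gene, had 404 and 312 fragments and −0.29 (−0.51 to −0.08). CAPN10-DT had 135 and 95 fragments and −0.40 (−0.82 to −0.04), and AC009133.1 (MVP-DT) had 151 and 109 and −0.37 (−0.76 to −0.03). HAGLR is given with the HOX clusters, and NKILA, VPS9D1-AS1 and AC098864.1 with their partners.

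With the same minimum of 50 fragments, the 8 highest ratios ran from 0.53 to 0.87. AC020571.1 (HECW2-AS1, chr2:196260024-196264204, plus strand), an RNA inside HECW2, had 1.68 FPKM in shControl and 3.15 in shFKBP9, from 49 and 87 fragments, and 0.87 (0.38 to 1.44). AC010327.3 (DNAAF3-AS1) had 1.45 and 2.69 FPKM, 43 and 76 fragments, and 0.85 (0.34 to 1.47). AL080317.1 had 19 and 33 fragments and 0.84 (0.02 to 1.77), and AC008966.1 (MOCS2-DT) had 61 and 86 fragments and 0.53 (0.08 to 1.07). The intervals of the other 4 of the 8 included 0: TMEM92-AS1 with 0.74, AC004923.4 with 0.67, AC010834.3 with 0.63 and AL357079.1 (LINC02918) with 0.53.

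Better counted members above 0 were named after their values were seen. WAC-AS1, which starts at the gene of a histone H2B ubiquitination adaptor, had 2.91 and 4.22 FPKM, 155 and 213 fragments, and 0.52 (0.23 to 0.84). MSC-AS1 had 2.30 and 2.90 FPKM, 262 and 313 fragments, and 0.32 (0.09 to 0.58). RASSF8-AS1 had 246 and 288 fragments and 0.30 (0.05 to 0.56), and AC097534.2 (SAP30-DT) had 76 and 105 and 0.52 (0.10 to 0.99). Each had more fragments in shFKBP9 although that library was the shallower.

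**Figure D2:**
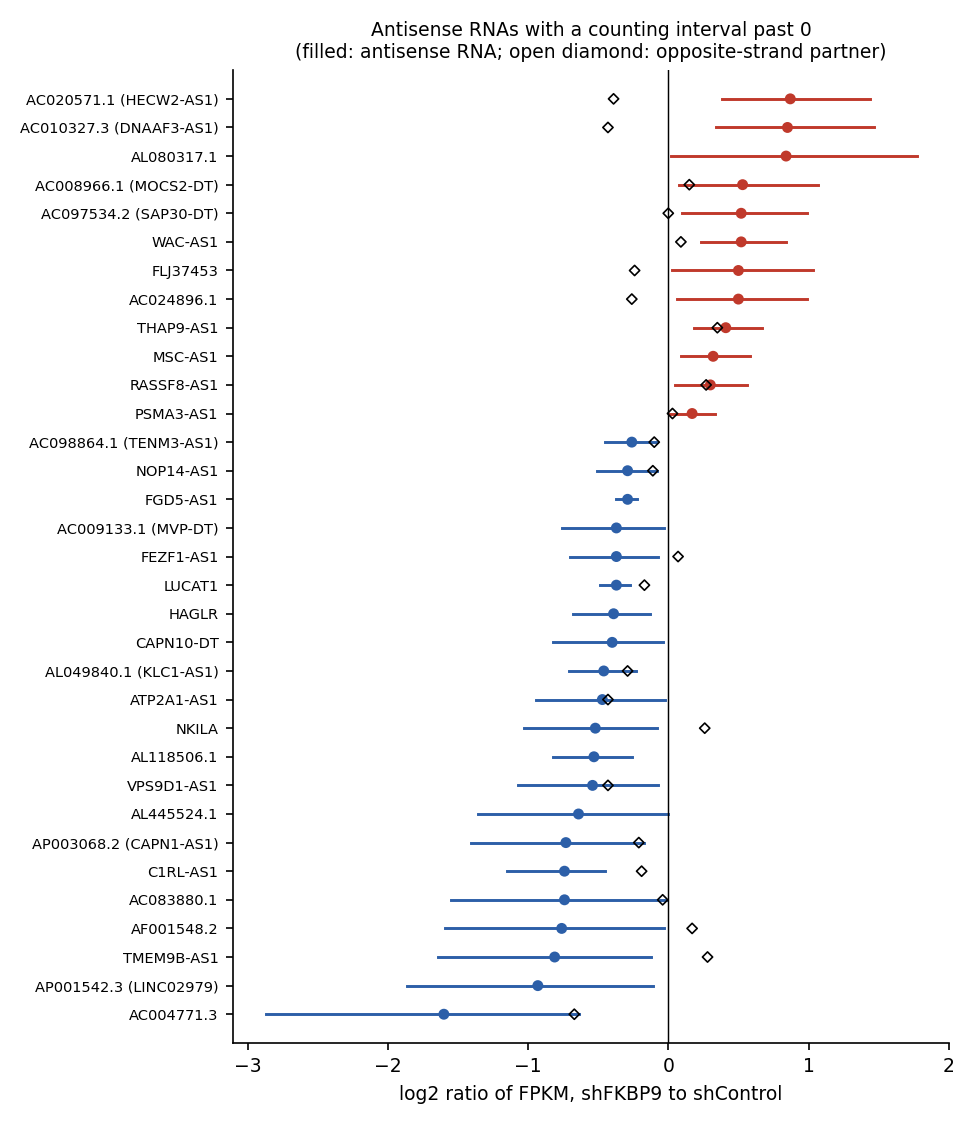
Log2 ratio of FPKM, shFKBP9 over shControl (x), for 33 of the 34 antisense RNAs (y) whose 95% counting interval (line) left out 0, red above and blue below. Open diamonds are the opposite-strand partners with at least 50 fragments, and they sit on the other side of 0 for AC020571.1 and AC010327.3 and on the same side for AL049840.1 and RASSF8-AS1.

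Of 58 characterised antisense and related RNAs on a list made from general knowledge, 56 rows were in the file, 32 were annotated as antisense and 11 were members. Their median log2 ratio was −0.04, against −0.02 for all genes, with 4 higher and 7 lower. Intervals lay above 0 for 2 of them, THAP9-AS1 and PSMA3-AS1 (18.5% of all genes), and below 0 for 1, FGD5-AS1 (22.6% of all genes). THAP9-AS1 had 3.04 and 4.08 FPKM, 242 and 308 fragments, and 0.41 (0.18 to 0.67). PSMA3-AS1 had 4.61 and 5.19 FPKM, 619 and 660 fragments, and 0.17 (0.01 to 0.33). The other 8 had intervals that included 0, namely LOXL1-AS1 at 0.05, SLC16A1-AS1 at −0.02, PXN-AS1 at −0.04, NUTM2A-AS1 at −0.10, TMPO-AS1 at −0.11, ARRDC1-AS1 at −0.14, RAB11B-AS1 at −0.63 and PITPNA-AS1 at 0.46. The last 2 had 37 and 22, and 25 and 33, fragments.

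The HOX clusters hold antisense RNAs between the genes that set position along the body axis. Of 19 on the list, 15 were annotated as antisense and 4 were members, with a median log2 ratio of −0.31, against −0.02 for all genes. HAGLR, at the HOXD1 end of the HOXD cluster, had 2.87 and 2.17 FPKM, 266 and 190 fragments, and −0.39 (−0.68 to −0.13). HOTAIRM1, known from myeloid differentiation, had 3.36 and 2.65 FPKM and −0.33 (−0.82 to 0.13). HOXD-AS2 had 3.25 and 2.65 FPKM and −0.28 (−0.78 to 0.19), and HOXB-AS1 had 2.37 and 2.47 FPKM and 0.05 (−0.46 to 0.57). One of the 4 intervals lay below 0 and none above, where 22.6% and 18.5% of all genes had such intervals. HOTAIR, HOTTIP, HOXA10-AS and HOXC13-AS were among those listed at 0 FPKM in both libraries. None of the 305 lay opposite any of 61 genes of the unfolded protein response on the list.

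An opposite-strand protein-coding gene overlapped 258 of the 305 members, and 51 of these overlapped more than 1. The partner used for each was the gene with the longest overlap, which gave 254 different partners. CLDN14, DLGAP1, KLC1 and PCGF3 each served 2 members. Of the 47 members without an overlap, 30 began within 1000 bases of a protein-coding start on the opposite strand, and 13 had none within 5000 bases. A same-strand protein-coding gene overlapped 17 members.

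In most pairs the protein-coding gene was the more abundant. It had the higher FPKM in both libraries in 177 pairs, the antisense RNA had it in 77, and the order differed between libraries in 4. The median partner had 6.46 FPKM in shControl and 5.84 in shFKBP9, and the median ratio of antisense to partner was 0.393. Partners were under 1 FPKM in both libraries in 50 pairs, and 6 had no fragment at all. The minimum of 1 FPKM was set on the antisense RNA and not on the partner, so in those 50 of the 77 pairs the order was fixed by the selection. Some silent partners carry clone names and were taken for their longer overlap, although the member also overlaps an expressed gene. AC009133.1, for example, was paired with AC009133.6 (no fragment) and also overlaps MVP (63.4 and 61.7 FPKM). With the partner of highest FPKM, the antisense RNA was the higher in 64 pairs. Across the 258 pairs the levels had almost no relation (Pearson 0.05 and Spearman 0.01, log2 mean FPKM), and the points share libraries and, in part, reads.

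At one extreme stood antisense RNAs over nearly silent partners. FGD5-AS1 had 3040 and 2350 fragments where FGD5, an endothelial guanine nucleotide exchange factor, had 1 and 0. AC020915.3 (ZNF8-DT) had 84 and 105 fragments over 1 and 0 on AC020915.5, UBA6-AS1 had 143 and 167 over 1 and 0 on the protease gene TMPRSS11D, and LINC01481 (PRANCR) had 33 and 41 over 1 and 0 on MYRFL. LUCAT1 overlapped one end of ADGRV1, a very long adhesion receptor gene with 34 and 22 fragments, by 109604 bases. With 0 to 1 fragments on the first 4 partners, no ratio between conditions can be given for them.

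Very abundant partners stood at the other extreme. ACTG1, the gene of gamma-actin, had 1691 and 1709 FPKM and its antisense RNA AC139149.1 had 1.21 and 1.28. S100A6, a calcium-binding protein gene, had 2339 and 2531 FPKM opposite BX470102.1 with 4.06 and 3.62. CD63, a tetraspanin gene, had 308 and 348 opposite AC009779.2 (CD63-AS1) with 2.64 and 2.66. The filamin gene FLNC had 153 and 129.6 opposite FLNC-AS1 with 1.68 and 1.35. Per base, the antisense RNAs of these 4 pairs had between 0.000732 and 0.0107 times the level of their partners, and how many of the antisense fragments come from the partner's strand was not tested.

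**Figure D3:**
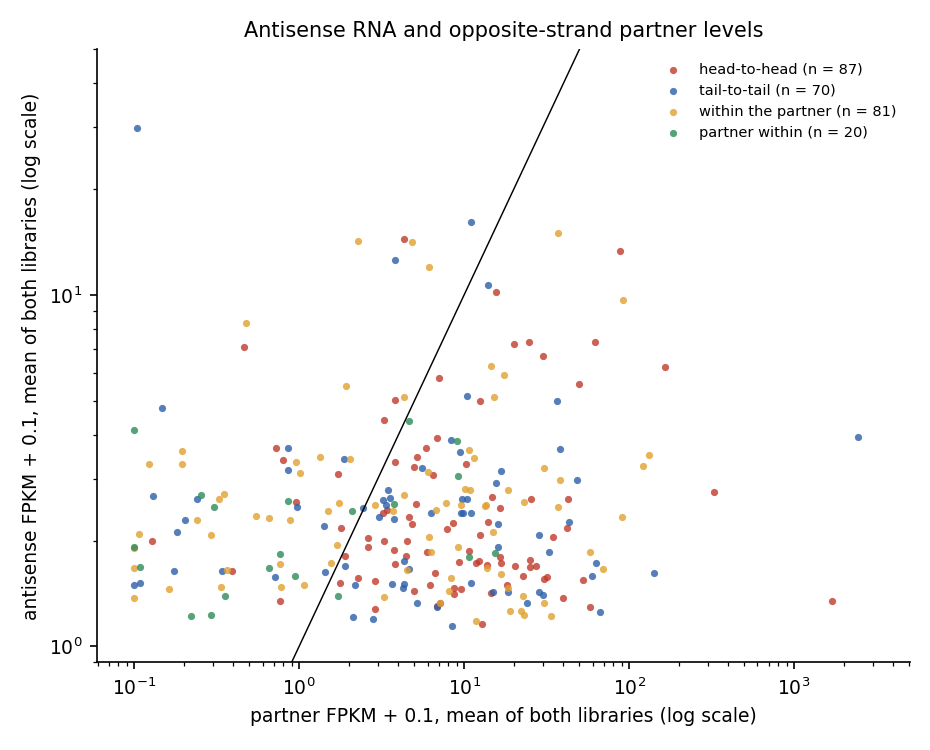
Mean FPKM of both libraries with 0.1 added, for the partner (x, log scale) and the antisense RNA (y, log scale), in 258 pairs coloured by position. The line is equal level, and 77 pairs have the antisense RNA at the higher FPKM in both libraries, FGD5-AS1 at the upper left among them.

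Changes of antisense RNA and partner between the libraries were weakly related. The Pearson correlation of the log2 ratios was 0.16 and Spearman 0.14 over 258 pairs, and 0.12 and 0.14 over the 182 pairs with at least 50 fragments on each gene. In the 21 pairs with over 50% of the antisense exonic bases in exons of opposite genes Pearson was 0.02. For pairs with no shared exonic base it was 0.20. The median log2 ratio of the partners was −0.05. Of the 254 different partners 37 had intervals above 0 (14.6%, against 18.5% of all genes) and 65 below (25.6%, against 22.6%), with medians of 1315 and 1261 fragments. In 228 pairs the antisense interval included 0.

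Both intervals were below 0 in 7 pairs and above 0 in 2. Over all 258 pairs the partner interval lay above 0 in 38 and below 0 in 66. In 15 pairs the antisense interval left out 0 and that of the partner included it. Whether pairs on the same side or on opposite sides of 0 were more than unrelated genes would give was not tested. KLC1 had 2333 and 1798 fragments and −0.29 (−0.39 to −0.21), beside −0.46 (−0.71 to −0.23) for AL049840.1, which shares no exonic base with it. VPS9D1 had −0.43 beside −0.54 for VPS9D1-AS1, TENM3 −0.10 beside −0.26 for AC098864.1 (TENM3-AS1), CAPN1 −0.21 beside −0.73 for AP003068.2, and C1RL −0.19 beside −0.74 for C1RL-AS1. INCA1 with AC004771.3 was described above. The 2 pairs above 0 were RASSF8 (0.27) with RASSF8-AS1 (0.30) and MOCS2 (0.15), of molybdenum cofactor synthesis, with AC008966.1 (0.53).

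In 6 pairs the intervals lay on opposite sides of 0. HECW2, a ubiquitin ligase gene, had 3.15 and 2.38 FPKM, 1349 and 967 fragments, and −0.39 (−0.52 to −0.28), against 0.87 for AC020571.1. No exonic base is shared between them in GENCODE 44. DNAAF3, a dynein assembly factor gene, had 117 and 81 fragments and −0.43 (−0.88 to −0.03), against 0.85 for AC010327.3, of whose exonic bases 54.7% lie in exons of opposite genes. TM7SF3 (−0.26) with AC024896.1 (0.50) and SPEN (−0.24) with FLJ37453 (0.50, SPEN-AS1 in GENCODE 44) went the same way. In the remaining 2, the antisense RNA was lower and the partner higher. They were TMEM9B (14.7 and 17.9 FPKM, 0.28, interval 0.14 to 0.42) with TMEM9B-AS1 (−0.81), and PMEPA1 (9.70 and 11.6 FPKM, 0.26, 0.14 to 0.39) with NKILA (2.10 and 1.43 FPKM, −0.52, −1.03 to −0.08). NKILA is known as a noncoding RNA that holds NF-kappaB in the cytoplasm, and PMEPA1 as a feedback inhibitor of TGF-beta signalling.

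The pairs whose ratios differed most, with 50 fragments on each gene, were AC010327.3 and DNAAF3 (difference 1.28), AC020571.1 and HECW2 (1.26), AP000695.2 (CLDN14-AS1) and CLDN14 (−1.12), and AC004923.4 and ALDH3B1 (1.12). CLDN14, a tight junction gene, went from 24 fragments in shControl to 51 in shFKBP9 with 1.02 (0.44 to 1.93), while AP000695.2 had 68 and 60 and −0.10 (−0.63 to 0.42). A further antisense gene over CLDN14, AP000695.1, had 49 and 63 fragments and 0.43 (−0.12 to 1.01). ALDH3B1, an aldehyde dehydrogenase gene, had 32.5 and 23.8 FPKM and −0.45 (−0.52 to −0.38), while AC004923.4 had 20 and 31 fragments and an interval from −0.15 to 1.60.

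Choosing the partner by the longest overlap passed over the active neighbour in some cases. FGD5-AS1 also overlaps NR2C2, a nuclear receptor gene, head to head by 841 bases. NR2C2 had 5.84 and 4.73 FPKM, 1251 and 960 fragments, and −0.30 (−0.43 to −0.18), beside −0.29 for FGD5-AS1. MSC-AS1 also covers MSC, the gene of the transcription factor musculin, which had 35.7 and 41.0 FPKM and 0.20 (0.10 to 0.31) beside 0.32. HOXB-AS1 also overlaps HOXB2, with 15.7 and 18.8 FPKM and 0.26 (0.11 to 0.41) beside 0.05. These 3 neighbours were picked after their values were seen.

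**Figure D4:**
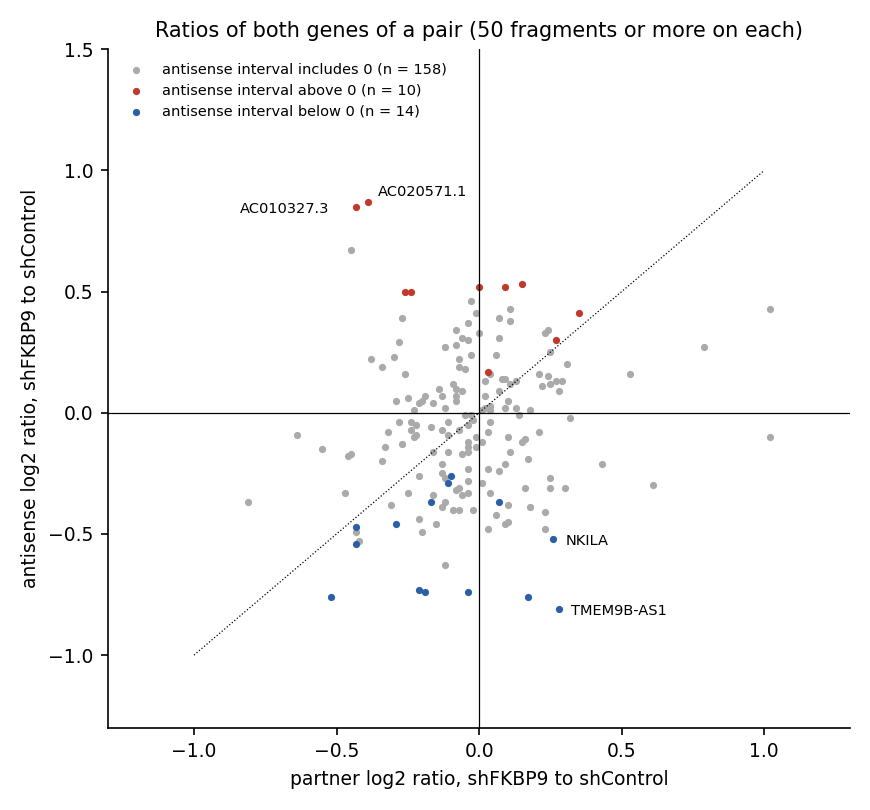
Log2 ratio in shFKBP9 to shControl of the partner (x) and the antisense RNA (y) for 182 pairs with at least 50 fragments on each gene. The dotted line is equal ratio, and AC020571.1 and AC010327.3 at the upper left and TMEM9B-AS1 and NKILA at the lower right lie on opposite sides of 0 from their partners.

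Levels are given by position as a description, since the minimum held the members, and not the partners, at 1 FPKM or more. Head-to-head members (87) had a median of 1.96 and 1.93 FPKM under partners at 8.10 and 8.43, and the antisense RNA was the more abundant in 11 of these pairs. Tail-to-tail members (70) had 2.13 and 2.11 FPKM under partners at 5.37 and 5.17, and were more abundant in 19. The 81 members within a partner had 2.48 and 2.14 FPKM under partners at 6.69 and 5.46, and were more abundant in 34. The 20 that held a whole partner had 2.04 and 1.80 FPKM over partners at 0.596 and 0.758, and were more abundant in 13. The 47 without an overlap had 2.03 and 2.01.

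Median log2 ratios were 0.01 for head-to-head, −0.07 for tail-to-tail, −0.02 for those within a partner, −0.15 for those holding a partner and 0.03 for those without one. The quartiles of all 5 groups overlapped. Intervals lay above 0 for 7 and below 0 for 5 of the head-to-head members, for 2 and 5 of the tail-to-tail, for 1 and 7 of those within a partner, for 1 and 2 of those holding a partner and for 1 and 3 of those without an overlap. Over all members the shares were 3.93% above and 7.21% below, against 18.5% and 22.6% of all genes, which had more fragments. Pearson correlations of antisense and partner log2 ratios were −0.01, 0.32, 0.13 and 0.25 in the 4 overlapping groups, in the order given. These are descriptions, and whether the groups differ was not tested.

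**Figure D5:**
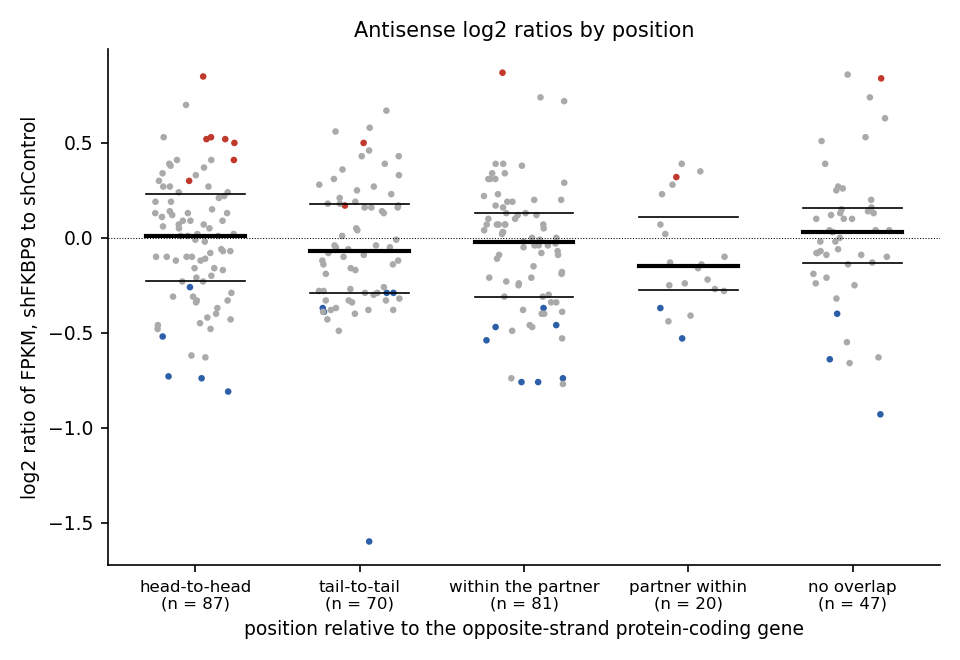
Log2 ratio in shFKBP9 to shControl (y) of each antisense RNA by its position against the protein-coding gene of the opposite strand (x), with the median (thick line) and quartiles (thin lines). Red and blue points have counting intervals above and below 0, and the medians lie between −0.15 and 0.03.

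Only a small part of the exonic bases of a typical member lay in exons of the opposite genes. A share of bases is not a share of reads, as the partner was the more abundant in most pairs. How many reads were shared was not tested. A median of 8.72% of the antisense exonic bases fell in exons of the opposite genes, 28.9% in their introns and 43.9% outside them, over 254 pairs with exons in GENCODE 44. In 58 pairs no exonic base was shared and in 35 the antisense exons lay wholly in introns, while in 21 over 50% lay in opposite exons. Unspliced RNA of the partner covers introns too, and its part in the counts was not tested.

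The minimum that chose the members cut through a continuum. Just inside it were AC139530.1 (1.45 and 1.0 FPKM), AC109322.1 (1.0 and 1.11) and C1RL-AS1 (1.76 and 1.01). Just outside were AP000442.2 (1.24 and 0.996), AL731569.1 (1.08 and 0.990) and AC018797.2 (1.19 and 0.989). A further 56 antisense genes of at least 500 bases reached 1 FPKM in shControl only and 36 in shFKBP9 only.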

How the data were processed

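RNA of SF-539 cells with the control or the FKBP9 shRNA (1 library each) was sequenced from NEBNext Ultra libraries. The authors removed low-quality reads, aligned read pairs to hg38 with HISAT2 2.0.5, counted them per gene with featureCounts 1.5.0-p3 and deposited FPKM values. The strand setting is not given in the sources used here. FPKM times gene length was a whole multiple of 1 step per library for 100% of values (within 0.1), so fragments were recovered. A count test needs replicates and was not run, and intervals cover counting error alone.

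Members followed the stated rule, and the background was 11104 genes of any biotype past the same minimum. Partners were protein-coding genes overlapping on the opposite strand. Exons came from GENCODE 44, which is of the same build but another release and holds 299 of 305 members by identifier. The members and lists were chosen with earlier results of these data known. Named genes were FKBP9, the 12 most abundant members, the 8 highest and 8 lowest ratios with at least 50 fragments, list members, the 4 pairs at each extreme of level and the 4 of largest difference in ratio, partners, and the 3 genes on each side of the minimum. Others were chosen after their values were seen. Fragment recovery, intervals and pairing were tested on simulated data. Alternatives changed the amount added, the scaling, the minimum and the partner. Python 3.11.15, numpy 2.4.6, pandas 2.3.3 and scipy 1.17.1 were used. Some named items are not reported here.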

Additional observations from a re-analysis of the deposited data

How the results depend on the processing

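No paired analysis was possible because there was 1 library per condition, and for the same reason no library could be left out. Of 78 values recomputed under the alternatives, 54 stayed within the allowed spread (counts within 1.5 times), 24 moved and 0 reversed. With 1 added to FPKM in place of 0.1, 4 members were past 1.5-fold higher and 3 lower, and FKBP9 was at −3.16. Minimums of 0.5 and 2 FPKM gave 538 and 135 members. With 2 FPKM, 0 were lower past 2-fold, 0 higher and 1 lower past 1.5-fold, 5 and 10 intervals lay above and below 0, and 42 pairs had the antisense RNA at the higher FPKM. With at least 50 fragments, 0 were lower past 2-fold, and 6 higher and 9 lower past 1.5-fold. With no minimum beyond 1 fragment, 204 were higher and 190 lower past 2-fold, 435 and 475 past 1.5-fold, 33 and 65 intervals lay above and below 0, the medians were 0.01 for antisense genes and −0.01 for partners, 257 pairs had the antisense RNA at the higher FPKM, and the correlation was 0.03. That setting takes in genes of a few fragments. Scaling so that the median expressed gene had a ratio of 1 (a shift of −0.017 on the log2 scale) or to TPM moved no count by over 1.5 times.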

Other observations

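There were 3817 antisense genes of at least 500 bases under 1 FPKM in at least 1 library. Of these, 143 had 50 or more fragments in the libraries together, and 0 of the 143 were past 2-fold in either direction. The 0.1 added to each FPKM pulls ratios at such low levels toward 0. For example, the lincRNA JPX had 0.179 FPKM in shControl and 0.0902 in shFKBP9, from 44 and 21 fragments, but a log2 ratio of −0.55. The count therefore cannot show that none of the 143 differed 2-fold, and the share among all genes of like level was not tested. AC073072.1, an antisense gene at the locus of IL6, the interleukin-6 gene, and named after its value was seen, went from 3 to 13 fragments between the shControl and shFKBP9 libraries (1.56 on the log2 scale, 0.33 to 4.64), while IL6 had 15 and 67 (1.99, 1.41 to 3.15). Whether reads of IL6 enter the count of AC073072.1 was not tested.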
